A study of Homo sapiens with 12 samples.

Results

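The regions described here are the stretches of DU-145 chromatin that held an accessibility peak in each of the 3 libraries from doxycycline-treated cells and in none of the 3 libraries from vehicle-treated cells. They are called gained regions below. Of the 77618 autosomal regions in the DU-145 table, 8317 had this pattern, which is 10.7% of them. The members were selected on the DU-145 peak calls themselves, so every DU-145 difference given for them is a description and carries no test. Another 137 regions on the X and Y chromosomes had the same pattern and were left out by the rule.

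Both cell lines of the study are human and established. DU-145 cells come from castration-resistant prostate cancer (CRPC) and BT-549 cells from triple-negative breast cancer (TNBC). Cells of both lines carried a tetracycline-inducible short hairpin RNA against MUC1 (tet-MUC1shRNA), vehicle and treated cells alike, and doxycycline (DOX) switches on the hairpin that silences MUC1-C. Each line was treated with DOX or with 0.1% DMSO as vehicle for 7 days, and 3 libraries were made for each of the 4 groups, 12 libraries in all. An effect of the hairpin and an effect of DOX itself cannot be told apart, because no cells with a control hairpin were analysed here. One label field calls the vehicle cells untreated. ATAC-seq reads the accessibility of DNA and not the level of a transcript, so these libraries hold no direct check that MUC1 was silenced. Of the 2 DU-145 regions nearest to the MUC1 gene, 0 were gained and 0 had the reverse pattern.

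In ATAC-seq the Tn5 transposase cuts and tags DNA that is not wrapped in nucleosomes or covered by other proteins, so a pile of fragments marks a promoter, an enhancer or another open element. Promoters of widely expressed genes are open in most cells, whereas enhancers, which lie away from genes and act over a distance, are opened in a cell-specific way by transcription factors and chromatin remodelers. AP-1, a dimer of JUN and FOS family proteins, is a factor that binds many enhancers of epithelial cancer cells and that recruits the BAF remodeling complex. The study from which these libraries come follows JUN/AP-1 and BAF downstream of MUC1-C.

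The sequences of 7 members are printed below, read from GRCh38 in windows of 300 bp at the highest bin of each region. They are the 3 members with the highest coverage after DOX and, for each direction, the first 2 by adjusted p among the members that opened or closed in BT-549. Capitals mark a match to the AP-1 sequence TGACTCA on either strand (its reverse complement reads TGAGTCA).
FRMD6 region, chr14:51458601-51458900: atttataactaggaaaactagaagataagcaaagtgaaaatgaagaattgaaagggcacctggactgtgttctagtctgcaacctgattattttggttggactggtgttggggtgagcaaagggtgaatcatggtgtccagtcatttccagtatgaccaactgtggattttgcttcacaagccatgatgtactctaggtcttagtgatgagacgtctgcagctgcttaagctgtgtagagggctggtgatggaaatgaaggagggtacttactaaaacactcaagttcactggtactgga
TGFA region, chr2:70388201-70388500: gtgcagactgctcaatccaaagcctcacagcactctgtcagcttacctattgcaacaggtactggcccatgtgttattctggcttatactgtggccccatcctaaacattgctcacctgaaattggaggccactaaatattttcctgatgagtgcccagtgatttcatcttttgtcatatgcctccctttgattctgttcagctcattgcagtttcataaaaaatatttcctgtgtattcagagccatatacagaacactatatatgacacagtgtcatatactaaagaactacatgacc
E2F3 region, chr6:20364401-20364700: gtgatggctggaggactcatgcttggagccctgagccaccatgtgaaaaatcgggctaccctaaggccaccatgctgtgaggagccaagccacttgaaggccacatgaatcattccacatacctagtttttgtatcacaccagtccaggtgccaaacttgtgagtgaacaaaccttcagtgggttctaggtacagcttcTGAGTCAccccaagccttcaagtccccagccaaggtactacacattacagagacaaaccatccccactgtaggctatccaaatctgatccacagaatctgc
ZC3H11B region, opened in BT-549, chr1:219699901-219700200: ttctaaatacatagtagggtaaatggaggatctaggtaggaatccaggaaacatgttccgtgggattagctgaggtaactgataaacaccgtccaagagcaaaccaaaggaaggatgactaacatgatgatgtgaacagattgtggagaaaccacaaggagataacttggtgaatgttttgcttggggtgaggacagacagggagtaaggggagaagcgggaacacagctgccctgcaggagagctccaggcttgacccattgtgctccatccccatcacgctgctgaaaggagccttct
PTPRZ1 region, opened in BT-549, chr7:121945201-121945500: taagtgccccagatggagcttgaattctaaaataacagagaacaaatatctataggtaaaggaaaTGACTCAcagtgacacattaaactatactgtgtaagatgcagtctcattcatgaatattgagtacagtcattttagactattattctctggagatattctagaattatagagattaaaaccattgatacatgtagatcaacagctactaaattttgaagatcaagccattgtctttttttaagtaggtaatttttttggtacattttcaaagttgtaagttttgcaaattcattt
ASPN region, closed in BT-549, chr9:92506301-92506600: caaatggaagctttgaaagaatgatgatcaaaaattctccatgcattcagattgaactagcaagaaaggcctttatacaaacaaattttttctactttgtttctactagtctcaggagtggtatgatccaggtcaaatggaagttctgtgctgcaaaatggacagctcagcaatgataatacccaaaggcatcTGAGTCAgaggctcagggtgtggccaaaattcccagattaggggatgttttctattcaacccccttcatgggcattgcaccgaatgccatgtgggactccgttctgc
UAP1 region, closed in BT-549, chr1:162604401-162604700: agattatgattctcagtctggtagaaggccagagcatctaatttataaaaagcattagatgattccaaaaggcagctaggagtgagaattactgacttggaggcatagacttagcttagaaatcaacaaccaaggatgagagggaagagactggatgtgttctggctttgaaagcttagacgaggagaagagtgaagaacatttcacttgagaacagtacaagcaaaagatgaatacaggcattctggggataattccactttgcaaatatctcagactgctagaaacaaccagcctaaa
Regions are named after the protein-coding gene with the nearest transcription start site (TSS), and the name says nothing of what the region regulates. The windows near E2F3, PTPRZ1 and ASPN each held 1 AP-1 match, whose middle lay 52 bp, -82 bp and 46 bp from the center of the highest bin. The windows near FRMD6, TGFA, ZC3H11B and UAP1 held 0. Of the other motifs searched, the FRMD6 window held the GATA, IRF and E-box letters, the ZC3H11B window the RUNX, GATA, E-box and SOX letters and the PTPRZ1 window the SOX letters, whereas the TGFA and UAP1 windows held none of the 16.

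Coverage of the gained regions was low in vehicle cells and moderate in DOX cells. The values are normalized coverage, that is, fragments per base averaged across the highest 100-bp bin of a region and scaled to the effective size of the library. The median over the 8317 members was 3.51, 3.23 and 3.38 in vehicle replicates 1 to 3, and 16, 13.3 and 14.3 in DOX replicates 1 to 3. The libraries of a group lay close together and the groups did not overlap in these medians, which the rule favored. For comparison, the 45174 regions with a peak in all 6 libraries had medians of 38.2 to 42.5 under vehicle and of 39.1 to 42.7 in DOX libraries. The median of the gained regions in DOX cells thus lay below that of the shared regions, although 104 members (1.25%) had a DOX coverage of at least 50. They took 0.470% to 0.513% of all bin coverage in the vehicle libraries and 2.30% to 2.64% in the DOX libraries.

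**Figure D1:**
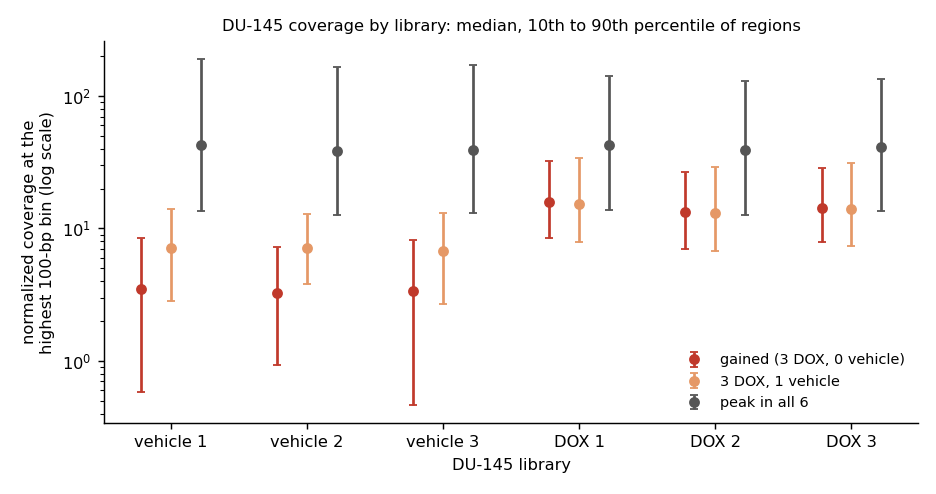
Normalized coverage at the highest 100-bp bin (log axis) in each DU-145 library for gained regions (red), regions with a peak in 3 DOX libraries and 1 vehicle library (orange) and regions with a peak in all 6 libraries (gray). Points are medians over regions and bars run from the 10th to the 90th percentile of regions. The gained medians are 3.23 to 3.51 under vehicle and 13.3 to 16 in DOX libraries, while the medians of the shared regions are 38.2 to 42.7 in both groups.

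The log2 fold change of DOX against vehicle had a median of 2.09 over the members (quartiles 1.46 and 2.80). It was below 0 in 33 members, from 0 to 1 in 949, from 1 to 2 in 2875, from 2 to 3 in 2813 and at least 3 in 1647, of which 428 reached at least 4. In 7647 members (91.9%) each DOX library lay above each vehicle library, and in 30.2% of all autosomal regions this was so. Since the rule used these libraries, nothing follows from that share.

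The rule is a threshold on peak calls, and its edge is soft. The 5865 regions with a peak in 3 DOX libraries and in 1 vehicle library lie just outside it. Their DOX coverage (median 14.2) was like that of the members (median 14.4), their vehicle coverage was higher (median 7 against 3.44), and their median log2 fold change was 0.97. In 4156 of them, 70.9%, the single vehicle peak came from vehicle replicate 2, the most deeply covered of the vehicle libraries, with bin values that sum to 24001285 against 12370094 and 13868501 in the other two. Without vehicle replicate 2, 12473 regions met the rule. The bin values of DOX replicates 1 to 3 sum to 16337380, 25232000 and 21094631. These libraries held 87702, 95487 and 89475 peaks, against 69240, 83605 and 63271 in vehicle replicates 1 to 3. The part of depth and of peak number in the gained and lost counts was not tested. Just inside the threshold, the weakest DOX peaks of members had a -log10 q of 1.68, 1.63 and 1.96 in DOX replicates 1 to 3, against medians of 13.4, 18.8 and 16.6. There were 273 members with a mean vehicle coverage of at least 10 that still had no vehicle peak. The members are regions without a called peak in vehicle cells, and not regions shown to be closed there.

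The 10 members with the highest DOX coverage reached 84.1 to 101 on average, with 67.9 in the lowest single DOX library and 14.8 in the highest single vehicle library. The first of them, chr14:51458001-51459200, lay 30350 bp from the TSS of FRMD6, which encodes a FERM-domain protein upstream of the Hippo kinases. Its coverage was 8.61, 5.65 and 3.65 under vehicle and 121, 95.4 and 86.9 in DOX libraries, a log2 fold change of 4.04 (SE 0.25). The region 77383 bp from TGFA, which encodes a ligand of the EGF receptor, had 5.34, 5.65 and 8.27 under vehicle and 117, 87.4 and 87.1 in DOX libraries. DOX replicate 1 was the highest of its group at both sites. The region 37329 bp from E2F3, a cell-cycle transcription factor, had 7.52, 9.78 and 6.87 under vehicle and 105, 76.1 and 90.6 in DOX libraries. The remaining members of this group lay near GPATCH2, EIF3H, TMCO1, PLXNA4, SLC16A14, ARHGAP28 and LYST. In the region 4641 bp from LYST, which encodes the lysosomal trafficking regulator, the contrast was sharpest among the 10, with 0.865, 1.39 and 2.78 under vehicle and 90.7, 69.6 and 91.9 in DOX libraries (log2 fold change 5.30, SE 0.33). Of the 10 regions, 6 were intronic, 3 were intergenic and 7 lay over 20 kb from a protein-coding TSS.

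The 8 members with the largest fold change among those with a DOX coverage of at least 20 were close to empty in vehicle cells. The region 16129 bp from PPIE, a peptidyl-prolyl isomerase gene, had 0, 0 and 0.0159 under vehicle and 26.6, 21.8 and 26 in DOX libraries. The region 53280 bp from NDUFV2, which encodes a subunit of mitochondrial complex I, had 0, 0.139 and 0 under vehicle and 27, 23 and 24 in DOX libraries. Fold changes against values this near 0 depend on how the fit treats low counts and set no bound. Higher DOX levels were reached 51413 bp from SLC35F4, with 0, 1.60 and 0 under vehicle and 74.1, 71.9 and 78.4 in DOX libraries, and 295703 bp from EFNA5, the gene of the ligand ephrin-A5, with 2.11, 1.17 and 0 under vehicle and 94.4, 69.3 and 73.1 in DOX libraries. Vehicle and DOX libraries were far apart at each of these sites, which the rule and the choice by fold change favored. The others lay near VPS4B, TNC (the matrix protein tenascin-C), SYNE2 and EBF1. None of the 8 overlapped a peak in a BT-549 vehicle library.

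The gained regions were narrow. Their median width was 400 bp (quartiles 400 and 500 bp), as against 400 bp for the 1882 regions with the reverse pattern (a peak in 3 vehicle and 0 DOX libraries, called lost regions below), 1000 bp for shared regions and 700 bp for all autosomal regions. Widths are set by the authors' peak calling and grow with coverage. A width of at least 1 kb was found in 151 members (1.82%) and in 51.4% of the shared regions. The widest member, 2300 bp, was the GPATCH2 region, followed by regions near ADCY10 and SEPTIN7 (1700 bp each), NID2 (1600 bp) and SERINC2 (1500 bp).

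Gained regions lay away from promoters. The highest bin was within 1 kb of an annotated TSS in 599 members, 7.2% (95% exact binomial interval 6.66% to 7.78%, counting error only), and in 37.0% of the shared regions and 26.2% of all autosomal regions. Lost regions were alike in this, with 9.03%. At the other end, 984 members (11.8%) lay over 50 kb from any TSS, compared with 8.87% of lost, 4.87% of shared and 6.47% of all regions. The median distance was 11224 bp for gained and 3392 bp for shared regions. By annotation 3945 members (47.4%) were intronic, 2494 (30.0%) intergenic, 1669 (20.1%) within 3 kb of a TSS and the rest in exons or UTRs. Their GC content was low, at a median of 43.0%, as against 44% in lost and 52.3% in shared regions.

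**Figure D2:**
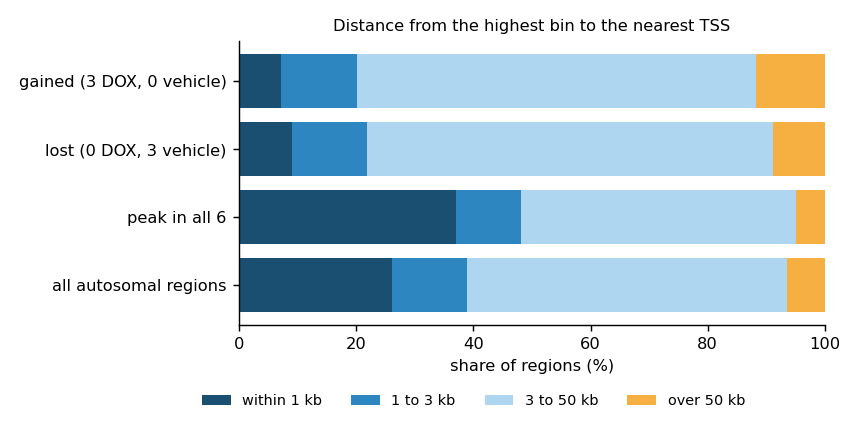
Share of regions (%) by distance from the highest bin to the nearest TSS for the 8317 gained, 1882 lost, 45174 shared and 77618 autosomal regions. Bars within 1 kb cover 7.2% of gained and 37.0% of shared regions, and bars over 50 kb cover 11.8% and 4.87%.

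Within 1 kb of a protein-coding TSS there were 342 members. The 8 with the highest DOX coverage were led by ARHGAP28, which encodes a GTPase-activating protein, with 14.8, 6.37 and 5.09 under vehicle and 100.5, 77.5 and 77.4 in DOX libraries at 643 bp from the TSS. At MCC, at 580 bp, coverage was 0.425, 2.28 and 0 under vehicle and 64.2, 36.0 and 50.4 in DOX libraries. The groups did not overlap at these sites, which the rule and the choice by DOX coverage favored. C1orf43, SUSD1, KRTAP4-6, CLDN12 (a claudin of tight junctions) and LRRC49 were also among the 8. A further promoter member lay 13 bp from a TSS of ARID1A, the DNA-binding subunit of BAF that the study follows, with 3.04, 2.07 and 5.38 under vehicle and 42.7, 35.2 and 31.6 in DOX libraries (log2 fold change 3.46, SE 0.35). It marks 1 of the annotated starts of the gene and not ARID1A expression.

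The share of regions that were gained differed along the genome. It was lowest on chromosome 22 (4.67%, 59 of 1263 regions), chromosome 19 (5.60%) and chromosome 16 (7.23%), and highest on chromosome 13 (14.5%, 209 of 1437 regions), chromosome 5 (13.2%) and chromosome 18 (13.1%). No test was made of these differences. Along a chromosome, the nearest region to a gained region was itself gained in 1423 cases (17.1%) and lost in 157 cases (1.89%). Next to shared regions, the nearest region was gained in 9.71% and lost in 2.35% of cases. The median distance from a gained region to the next gained region was 68050 bp, and to the next shared region 15500 bp. Within 10 kb of another gained region lay 1245 members, 15.0%.

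The members spread over many genes. They were nearest to 4753 protein-coding genes, 29.8% of the 15926 genes that were nearest to any autosomal DU-145 region, and 2927 of these genes had 1 gained region. At least 5 were assigned to 223 genes and at least 10 to 13 genes, and large intergenic spaces raise such counts. HIF1A, the oxygen-regulated transcription factor, had 13 of its 33 regions gained within 33263 bp, the shortest reach among the 10 genes with the most gained regions. The higher of its named sites, 5263 bp from the TSS, had 2.43, 0.804 and 2.27 under vehicle and 11.8, 17.1 and 16.2 in DOX libraries. RPS29, a ribosomal protein gene, also had 13, of 46 regions. They were spread over up to 920975 bp of a gene-poor flank, with the strongest at 21.5, 16.5 and 12.4 in DOX libraries.

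TRIB1, a pseudokinase gene that binds C/EBP proteins, had 12 of its 44 regions gained (27.3%). AKAP6, which anchors protein kinase A, had 12 of 89 (13.5%), beside 10.7% over all autosomal regions. The AKAP6 site at 19951 bp had 4.94, 9.36 and 8.81 under vehicle and 52.1, 37.9 and 40.8 in DOX libraries. SOX9, LPP and PALM2AKAP2 had 11 each, of 41, 49 and 46 regions. RGMB, SUGCT and CAMK1G had 10 each, of 23, 30 and 39 regions. RGMB encodes a BMP coreceptor, and 10 of its 23 regions were gained, 43.5%. No lost region was nearest to HIF1A, RPS29, TRIB1, SOX9, SUGCT or CAMK1G.

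Gene groups were described by the regions nearest to their genes. The measure is the share of a group's regions that were gained, which was 10.7% over all autosomal regions. Among lineage and stemness genes the shares were 15.6% for neuroendocrine lineage genes (22 of 141 regions), 14.0% for stemness factors (36 of 258) and 9.49% for androgen receptor and luminal prostate genes (15 of 158). The SOX4 region, 154801 bp from this HMG-box factor gene, had the strongest DOX signal of these groups, with 1.47, 4.10 and 0.0794 under vehicle and 67, 65.8 and 62.9 in DOX libraries. SOX9 and HMGA2, an architectural chromatin protein, followed, with DOX values of 44.9, 36.4 and 37.8 and of 47.2, 38.3 and 32.7. For SOX2 the region lay 207625 bp away and had 11.5, 5.79 and 7.68 under vehicle and 33.2, 32.0 and 38.5 in DOX libraries. In all of these the DOX libraries lay above the vehicle libraries, which the rule and the choice by DOX coverage favored. STMN2, a neuronal tubulin-binding protein gene, had 27.5, 29.4 and 32.5 in DOX libraries at 1967 bp, and POU2F3, the tuft cell factor, had 32.4, 23.4 and 33.3. In the luminal group, STEAP1 had 32.8, 22.1 and 28.5 and NR3C1, the glucocorticoid receptor gene, had 27.7, 30.6 and 23.7 in DOX libraries.

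Adhesion and matrix groups were at 14.0% for EMT factors and cadherins (37 of 264), 14.0% for integrins, laminins and collagens (49 of 351) and 12.8% for cell polarity genes (37 of 290). The COL1A2 region, 11945 bp from the gene of a type I collagen chain, had 5.28, 6.32 and 5.25 under vehicle and 57.0, 50.5 and 58.0 in DOX libraries. ITGA2, the collagen-binding integrin subunit, had 4.97, 5.09 and 1.59 under vehicle and 40.04, 36.7 and 43.4 in DOX libraries, and ITGB5 had 45.7, 41.4 and 39.8 in DOX libraries. The groups were apart at each of these sites, which the rule and the choice by DOX coverage favored. Among epithelial genes, EPCAM (an adhesion molecule) had 37.7, 40.7 and 32.4 in DOX libraries, whereas GRHL2, an epithelial transcription factor gene, started from 9.83, 12.8 and 16.6 under vehicle and had a log2 fold change of 1.25 (SE 0.26). PRICKLE1, of the planar polarity pathway, had 52.4, 33.1 and 40.4 in DOX libraries, DLG2 had 41, 31.5 and 39.9, and PRICKLE2 changed less, with a log2 fold change of 0.92 (SE 0.26).

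Signaling groups lay nearer the background. They were TGF-beta and BMP at 12.1% (57 of 471), NOTCH at 11.4% (19 of 166), WNT ligands and receptors at 10.8% (36 of 334), Hippo and YAP at 10.7% (37 of 345) and receptor tyrosine kinases and ligands at 9.76% (48 of 492). ACVR1, a type I BMP receptor gene, had 8.73, 6.84 and 7.36 under vehicle and 75.7, 44.5 and 56.1 in DOX libraries. TGFBR3, the coreceptor betaglycan, had 6.76, 1.64 and 1.38 under vehicle and 62.9, 50.6 and 53.3 in DOX libraries. LTBP1, which holds latent TGF-beta in the matrix, had a log2 fold change of 2.24 (SE 0.25). These 3 regions were named for the highest DOX coverage among the 57 members of this group, and their names say nothing of what they regulate. In the NOTCH group RBPJ, the DNA-binding partner of the receptor, had 1.89, 2.33 and 1.24 under vehicle and 39.6, 32.3 and 27.4 in DOX libraries, and the target genes HEY1 and HEYL had log2 fold changes of 1.81 and 2.51. TCF7L2, the nuclear effector of WNT, had 62.4, 44.5 and 56.4 and the secreted inhibitor DKK1 had 49.0, 45.1 and 47.5 in DOX libraries. ROR1, a WNT5A receptor, was already covered at 16.5, 16.8 and 21.8 in vehicle, so that members differ in how much coverage vehicle cells had. Beside FRMD6, the Hippo kinase STK4 had 61.4, 52.8 and 61.9 and TEAD1, the DNA-binding partner of YAP, had 34.4, 36.2 and 31.6 in DOX libraries. PDGFC had 54.0, 35.7 and 53.7 and ERBB4 had 43.9, 26.4 and 26.7 in DOX libraries.

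The remaining groups were the chromatin and AP-1 factors and the inflammatory genes. BAF subunit genes had 12 of 172 regions gained (6.98%), AP-1 factors 11 of 114 (9.65%), NF-kB and inflammatory mediators 16 of 169 (9.47%) and type I interferon genes 9 of 159 (5.66%). Besides ARID1A, the BAF genes included DPF3 with 43.0, 33.3 and 44.9 and SS18 with 29.0, 16.3 and 17.9 in DOX libraries. Of the AP-1 genes BATF had a log2 fold change of 1.08 (SE 0.30), FOS of 2.75 (SE 0.39) and ATF7 of 2.50 (SE 0.39). TNFAIP3, the NF-kB feedback gene, had a region with 5.95, 2.44 and 6 under vehicle and 37.5, 38.2 and 39.3 in DOX libraries, and REL, an NF-kB subunit gene, had 28.8, 25 and 30.9 in DOX libraries. In the interferon group the log2 fold change was 1.63 (SE 0.30) at the kinase gene JAK1 and 0.96 (SE 0.38) at IFIT2, an antiviral gene, and IRF2 had 12, 13.2 and 10.3 in DOX libraries. No test was made on these shares, and the groups differ in gene size and spacing.

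The AP-1 sequence was frequent in gained regions. A match was present in 3538 of the 8317 windows of 300 bp, 42.5% (95% exact binomial interval 41.5% to 43.6%, counting error only), compared with 12.6% of lost, 28.5% of shared and 30.1% of all autosomal windows. At least 2 matches were present in 465 members (5.59%) and in 0.266% of lost regions. The matches sat at the summit. In the 50 bp on each side of the center of the highest bin there were 148 and 149 matches per 1000 gained regions, against 8.18 to 9.14 at the outer edges of the surrounding 500 bp. At lost regions the same central steps held 30.8 and 32.9, and at shared regions 92.9 and 90.3.

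**Figure D3:**
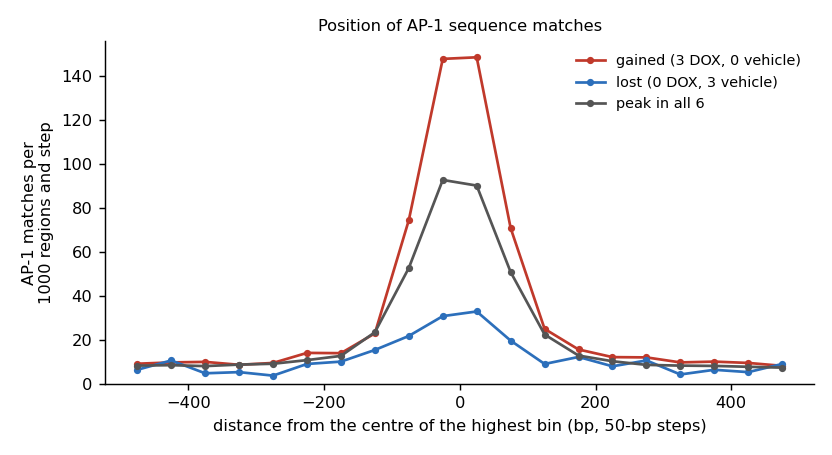
AP-1 sequence matches per 1000 regions in steps of 50 bp around the center of the highest bin for gained (red), lost (blue) and shared (gray) regions. The central steps hold 148 and 149 matches at gained, 30.8 and 32.9 at lost and 92.9 and 90.3 at shared regions, and the lines meet at the edges.

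The contrast with shared regions changed with position and base composition. In the windows that lay over 3 kb from a TSS and had 40% to 50% GC, the AP-1 sequence was present in 43.7% of gained regions (3817 windows), 45.0% of shared regions (11658 windows) and 40.3% of all autosomal regions. In the same windows it was present in 13.4% of lost regions (820 windows). In such windows the AP-1 share of gained regions was thus near that of other distal regions, and that of lost regions was lower. The AP-1 share was 42.1% in members with a log2 fold change under 2, 45.1% from 2 to 3 and 39.3% at 3 and above, with no steady order. It was 48.5% in members with a DOX coverage of at least 20 and 40.4% in the others.

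The other motifs of the 16 searched, also on both strands, were read in the same windows. Promoter-type letters were scarce. The SP/KLF box GGGCGG was found in 2.63% of gained, 5.15% of lost, 30.8% of shared and 20.9% of all regions, and the ETS sequence CCGGAAG in 0.673%, 0.797%, 6.61% and 4.35%. In distal windows of 40% to 50% GC the SP/KLF shares were 2.04%, 2.2%, 3.78% and 3.37%, so that most of this contrast was absent there. The core motif of the insulator protein CTCF was found in 4.16% of gained, 4.30% of lost, 15.4% of shared and 13.8% of all regions. In distal windows of 40% to 50% GC it was in 3.48% of gained and 9.05% of shared regions, so that this contrast stayed there. The TEAD sequence ACATTCC was found in 9.38%, 6.22%, 6.07% and 6.65% of the 4 classes, and the SOX sequence ACAATG in 19.7%, 17.3%, 11.7% and 13.7%. In distal windows these came to 9.38% and 18.7% in gained and to 8.94% and 17.6% in shared regions. The GATA sequence AGATAA (18.5% of gained, 22.9% of lost), the RUNX sequence TGTGGTT (9.75% and 13.1%) and the forkhead sequence TGTTTAC (6.91% and 12.4%) were more frequent in lost than in gained regions. The IRF, E-box, C/EBP, POU, NF-kB, CRE and steroid receptor element searches gave 10.3%, 15.8%, 2.54%, 2.26%, 1.30%, 0.144% and 0.421% of gained and 8.76%, 18.4%, 2.33%, 1.54%, 1.66%, 0.751% and 0.455% of all regions. A match says that the letters are present, and not that a factor is bound.

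**Figure D4:**
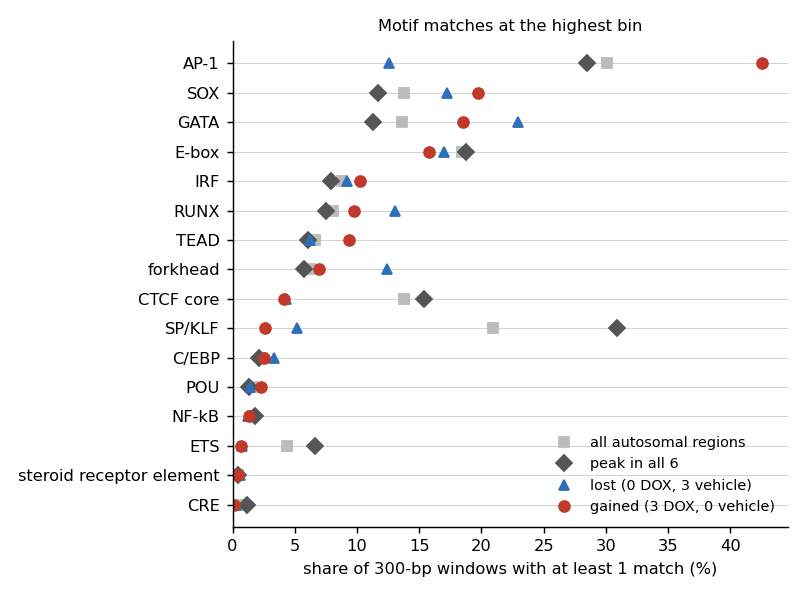
Share of 300-bp windows (%) with at least 1 match to each of 16 motifs for gained (circles), lost (triangles), shared (diamonds) and all autosomal regions (squares). AP-1 is at 42.5% in gained and 12.6% in lost regions, and SP/KLF is at 2.63% in gained and 30.8% in shared regions over all windows, and at 2.04% and 3.78% in distal windows of 40% to 50% GC.

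In BT-549 cells most gained regions had no peak. Of the 8317 members, 6129 (73.7%) overlapped a peak in none of the 6 BT-549 libraries. This was so for 28.3% of shared, 79.8% of lost and 41.9% of all autosomal DU-145 regions. Shared regions were wider (median 1000 bp against 400 bp) and more often within 1 kb of a TSS (37.0% against 7.2%). No comparison matched for width or TSS distance was made. A peak in at least 1 BT-549 vehicle library was found at 2084 members (25.1%) and in all 3 at 969 members (11.7%). For all autosomal DU-145 regions these shares were 57.2% and 40.6%. By library, 20.2%, 18.8% and 14.4% of the members had a peak in vehicle replicates 1 to 3 and 5.27%, 6.37% and 4.62% in DOX replicates 1 to 3. The DOX shares were below the vehicle shares in each class of regions, and in the shared class the range was 59.9% to 66.6% under vehicle and 38.7% to 42.6% in DOX libraries. The BT-549 DOX libraries were shallow, with bin values that sum to 2502510 to 3267024 as against 9142900 to 13606129 in vehicle libraries. The part of this depth gap in the peak shares was not tested.

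**Figure D5:**
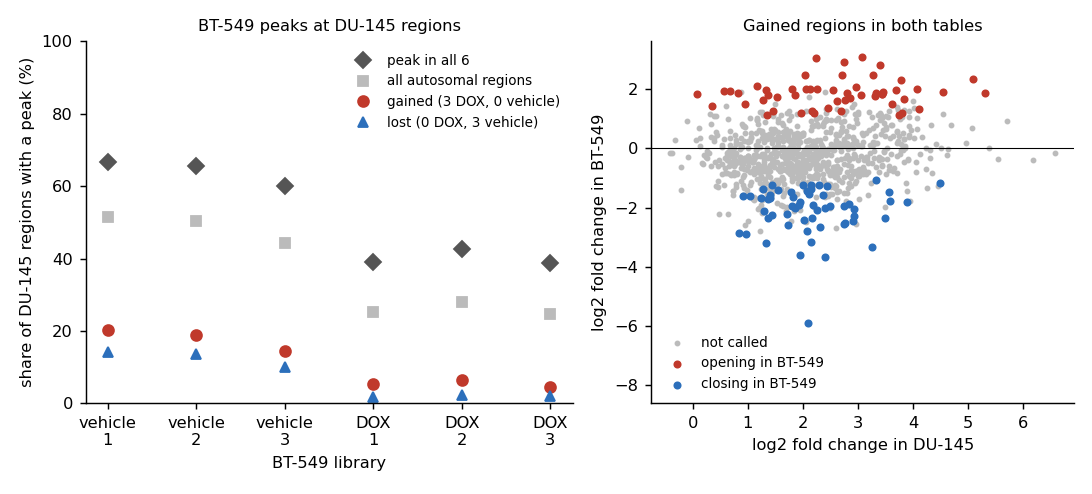
Left, share (%) of DU-145 regions of each class that overlap a peak in each BT-549 library. Right, log2 fold change in BT-549 against that in DU-145 for the 938 gained regions with BT-549 values, of which 53 opened (red) and 57 closed (blue) in BT-549. The gained shares are 14.4% to 20.2% under vehicle and 4.62% to 6.37% in DOX libraries, and the points spread on both sides of 0 on the BT-549 axis.

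The members were also described by their state in vehicle-treated BT-549 cells, with no test. Members with a peak in all 3 BT-549 vehicle libraries had a median width of 500 bp, an AP-1 share of 41% and a median DU-145 log2 fold change of 1.97, and members with a peak in none had 400 bp, 43.7% and 2.14. The forkhead sequence was present in 3.51% of the former and 7.94% of the latter, the RUNX sequence in 12.9% and 9.40%, the CTCF core in 6.50% and 3.18%, the SP/KLF box in 4.23% and 2.26% and the IRF sequence in 13.1% and 9.47%. Among members with a DU-145 log2 fold change of at least 3, 77.6% had no peak in a BT-549 library, and among those under 2 it was 70.7%.

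The DOX effect in BT-549 could be tested at 938 members, 11.3% of them, that overlap 933 regions of the BT-549 table. That table holds regions found in at least 3 libraries, and 936 of the 938 had a peak in a BT-549 vehicle library. BT-549 libraries were not used to choose the members. The median log2 fold change of the 938 was -0.28 (quartiles -0.85 and 0.37), and 365 of them (38.9%) lay above 0. Over all 46298 BT-549 regions the median was -0.16 and 40.9% lay above 0. Calls were made with edgeR's quasi-likelihood test and needed both an adjusted p under 0.01 and a change of 2-fold or more. By these cutoffs 53 members opened, 5.65% of those tested, beside 2.58% of all BT-549 regions, and 57 closed, 6.08%, beside 5.95% of all. These BT-549 regions were read over their whole length, and the members only in the part shared with the DU-145 region. Read as the members were, 30885 autosomal DU-145 regions had a median of -0.08, with 2.61% opening and 4.63% closing. Of the tested regions with a peak in 3 DOX libraries and 1 vehicle library of DU-145, 3.88% opened and 6.63% closed. Of the 134 lost DU-145 regions with BT-549 values 0 opened and 28 closed. At an adjusted p under 0.05 with no fold cutoff 89 members opened (9.49%, beside 6.59% of all regions) and 103 closed (11%, beside 10.9%). A difference between these shares was not tested.

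The opening share was higher at larger DU-145 differences, a pattern that was not tested. Among the tested members with a DU-145 log2 fold change of at least 3, 20 of 175 opened (11.4%) and 7 closed, from 2 to 3 it was 17 of 287 (5.92%) and 25, and under 2 it was 16 of 476 (3.36%) and 25. The closing count changed with the BT-549 DOX libraries used. Without DOX replicates 1, 2 and 3 it was 27, 24 and 17, which is 2.88%, 2.56% and 1.81% of the members beside 3.54%, 3.7% and 3.23% of all BT-549 regions. It was 29 after the trend with GC content was removed (3.09% beside 4.16%), and DESeq2 called 12 (1.28% beside 1.74%). The closing share of the members was thus below that of all BT-549 regions in these settings, and near it with all libraries by edgeR. For DU-145 regions read as the members were, these settings were not computed. The opening count without the same libraries was 46, 41 and 36, which is 4.9%, 4.37% and 3.84% beside 1.92%, 1.9% and 1.68%. It was 73 with the GC trend removed (7.78% beside 2.84%) and 35 by DESeq2 (3.73% beside 1.43%).

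The opening members had a median log2 fold change of 1.85 in BT-549 (range 1.12 to 3.09), and in 50 of the 53 each DOX library lay above each vehicle library. Over all 938 tested members this was so in 144 (15.4%), and the share over all BT-549 regions was not counted. The calls were made on the same libraries, so nothing follows from the higher share among them. Regions with few vehicle peaks entered the BT-549 table only with DOX peaks, which favors opening. Of the tested members, 2 of 2 with 0 BT-549 vehicle peaks opened, 13 of 44 with 1 or 2, and 38 of 892 (4.26%) with 3. The AP-1 sequence was present in 21 of the 53 opening members (39.6%), 27 were intergenic, 25 were intronic and 3 lay within 1 kb of a TSS. The region 86945 bp from ZC3H11B had 9.52, 10.1 and 7.64 under vehicle and 66.4, 79.5 and 62.9 in DOX libraries of BT-549 (log2 fold change 2.90, SE 0.25, adjusted p 2.23e-19, edgeR, n = 3 per group). In DU-145 its values were 3.61, 6.2 and 2.35 under vehicle and 26.6, 24.1 and 39.0 in DOX libraries. The intronic PTPRZ1 region, in the gene of a receptor tyrosine phosphatase, had 5.31, 6.4 and 7.69 under vehicle and 41.3, 48.2 and 43.3 in DOX libraries of BT-549 (log2 fold change 2.81, SE 0.31, adjusted p 2.98e-13, edgeR). DOX and vehicle libraries were well apart at both sites in both lines. The rule favored this in DU-145 and the choice by adjusted p in BT-549, so nothing follows from it.

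NFATC2, a calcium-regulated transcription factor gene, had a region 32669 bp away with 27.5, 25.6 and 17.0 under vehicle and 76.8, 84.9 and 87.1 in DOX libraries of BT-549 (log2 fold change 1.79, SE 0.20, adjusted p 7.93e-13, edgeR). The LYST region described above, among the 10 strongest in DU-145, opened in BT-549 from 23.8, 17.9 and 17.1 to 53.8, 83.0 and 78.4 (log2 fold change 1.86, SE 0.22, adjusted p 5.75e-12, edgeR). The others of the first 8 were the regions of HMCN1 (log2 fold change 1.99), IQCJ-SCHIP1 (1.88), ENC1 (2) and SYT14 (3.09). At SYT14 the DOX libraries were uneven, with 12.4, 18.6 and 39.1 against 3.43, 4.08 and 0.702 in vehicle.

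The closing members had a median log2 fold change of -1.93 in BT-549, and in 57 of 57 each DOX library lay below each vehicle library. Over all 938 tested members this was so in 270 (28.8%), and here too the calls were made on the same libraries. A region entered the BT-549 table with peaks in 3 libraries, and 29 of the 57 entered through the vehicle libraries alone, so the table favors regions that are high in vehicle cells. The AP-1 sequence was present in 25 of them (43.9%). The intronic region 23944 bp from ASPN, which encodes the matrix protein asporin, had 80.6, 80.4 and 74.6 under vehicle and 11.4, 32.0 and 24.8 in DOX libraries of BT-549 (log2 fold change -1.83, SE 0.24, adjusted p 7.72e-10, edgeR). In DU-145 the same region went from 1.54, 1.148 and 1.24 to 18.0, 21.6 and 18.3. The region 7309 bp from UAP1, a gene of UDP-N-acetylglucosamine synthesis, had 40.4, 39.7 and 39.9 under vehicle and 6.33, 11.2 and 5.80 in DOX libraries of BT-549 (log2 fold change -2.37, SE 0.36, adjusted p 1.26e-07, edgeR). The vehicle libraries were tight at both sites and the DOX libraries more scattered. PTGFR (a prostaglandin receptor gene), HS3ST1 (a heparan sulfate sulfotransferase gene), MATN2 (a matrix protein gene), EYA4, MAML2 (a NOTCH coactivator gene) and PPA2 completed the first 8, with log2 fold changes of -1.62, -1.69, -2.45, -1.25, -1.40 and -2.35. Another member nearest to HS3ST1, at -271386 bp from its TSS, opened in BT-549 with a log2 fold change of 1.26 (adjusted p 4.59e-05, edgeR). The IFIT2 region named above also closed in BT-549, with a log2 fold change of -2.89 (adjusted p 0.00132, edgeR). Its mean normalized coverage was 13.6 under vehicle and 1.53 in the shallow DOX libraries. A fold change that rests on so low a DOX value is imprecise.

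The full pattern, a peak in 3 DOX libraries and in no vehicle library, was met in both lines by 5 members, near PANX3, TMC5, IGFBP3, RSPO2 and SNTB1. They are named because the count is small. The choice was made on BT-549 peaks and favored opening there, so nothing follows from the adjusted p-values given next. The RSPO2 region, at -7908 bp from the gene of a secreted WNT agonist, had 2.50, 1.86 and 3.73 under vehicle and 28.5, 27.1 and 14.5 in DOX libraries of BT-549 (log2 fold change 3.04, SE 0.45, adjusted p 5.41e-08, edgeR), and 6.57, 3.08 and 3.59 under vehicle and 15.6, 19.7 and 20.3 in DOX libraries of DU-145. The SNTB1 region had 3.48, 3.28 and 0.848 under vehicle and 17.0, 22.9 and 9.18 in DOX libraries of BT-549 (log2 fold change 2.46, SE 0.51, adjusted p 0.000175, edgeR). The other 3 had no bin in the BT-549 table and were not tested. Of all autosomal DU-145 regions, 15 had this pattern in BT-549.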

How the data were processed

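ATAC-seq libraries of DU-145 and BT-549 cells, 3 biologically independent replicates per group, were aligned by the authors to GRCh38 with BWA and cleared of duplicates with Picard, and peaks were called for each library with MACS2 2.2.7.1 at a q-value cutoff of 0.05 (the submitters' processing notes also name MACS3). For each line the authors kept regions found in at least 3 libraries, cut them into bins of 100 bp and deposited an estimated count for each bin, the mean number of fragments over its bases, unscaled for depth. The deposited peak lists give fold enrichment, a ratio over local background, and -log10 q. The authors' bins cannot give fragment totals, and bin values summed to 12370094 to 25232000 in DU-145 and 2502510 to 13606129 in BT-549 libraries. All columns of the tables were mapped to samples (0 were left over).

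Values that were not whole were rounded. Bins with a total of at least 10 were fitted with edgeR 4.0.16 (TMM, robust quasi-likelihood test, R 4.3.3), and adjusted p-values are Benjamini-Hochberg values over all BT-549 bins. Each region was read at its highest bin. Peaks were counted as shared from 1 bp of overlap (bedtools 2.31.1). Start sites came from GENCODE 44 and sequences from GRCh38, which matched the build of the files. A mean of fragments over a bin is not an independent read count, so the precision of the fit is approximate. Named regions were the 10 with the highest DOX coverage, the 8 with the largest DU-145 fold change at a coverage of at least 20, the first 8 opening and closing in BT-549 by adjusted p, the 8 strongest promoter regions, the strongest sites of the 10 genes with the most members, up to 3 members for each of 15 gene lists and the 5 widest. The members and lists were chosen with earlier results of these data known. Alternatives covered the peak cutoff, overlap, scaling, GC trend, filters, region sums, replicate block, DESeq2 1.42.0 and leaving out each library. The fit was tested on simulated data. Some regions that this rule names are not reported here.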

Additional observations from a re-analysis of the deposited data

Results flagged for a closer look

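The effect of DOX pointed in opposite directions in the DU-145 and BT-549 lines at 57 gained regions, which had a peak in DOX cells alone in DU-145 and closed in BT-549. They are 6.08% of the 938 members tested, beside 5.95% of all BT-549 regions and 4.63% of autosomal DU-145 regions read as the members were. The share was near that of all BT-549 regions, so the count marks no trait of the gained regions. The count was 17 without DOX replicate 3 (1.81% beside 3.23% of all BT-549 regions). It was 29 with the GC trend removed (3.09% beside 4.16%) and 12 by DESeq2 (1.28% beside 1.74%). In the first 8 of these 57 by adjusted p, each DOX library lay above each vehicle library in DU-145 and below each in BT-549. In DU-145 this was so in 91.9% of all members and 30.2% of all autosomal regions. In BT-549 it was so in 28.8% of the 938 tested members, and over all BT-549 regions it was not counted. The rule and the choice by adjusted p favored this, so nothing follows from it. The BT-549 log2 fold changes were -1.83 at the ASPN region, -2.37 at UAP1, -1.62 at PTGFR, -1.69 at a region nearest to HS3ST1, -2.45 at MATN2, -1.25 at EYA4, -1.40 at MAML2 and -2.35 at PPA2. Another member nearest to HS3ST1 opened in BT-549, with a log2 fold change of 1.26. The difference between the lines itself was not tested, and the DU-145 direction was fixed by the choice of the members.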

How the results depend on the processing

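The number of gained regions was 8285 to 8372 with stricter peaks or a longer overlap, 8317 to 12473 with 1 library left out (9021 to 12473 for the vehicle libraries, the highest without replicate 2, whereas 8317 without a DOX library is fixed by the entry rule of the table) and 14182 when 1 vehicle library was allowed a peak. The median DU-145 log2 fold change was 2.22 with library totals, which moved the median of all bins from 0.07 to 0.20, and 2.03 to 2.15 with 1 library left out.

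In BT-549, 53 opening and 57 closing regions became 89 and 103 at an adjusted p under 0.05 with no fold cutoff, and 35 and 12 by DESeq2, which gave 679 of the 938 members an adjusted p. Summing the bins of each region gave 93 opening, and removing the GC trend gave 29 closing. With 1 library left out there were 36 to 51 opening and 17 to 51 closing. Opening was 73 with the GC trend removed, and the closing calls over all regions also went from 2754 to 806 by DESeq2. The median BT-549 log2 fold change was -0.078 with the GC trend removed and -0.087 for summed bins. The causes were not tested. With the replicate block 50 opened and 51 closed. Deviations of log coverage from the group mean correlated between same-numbered vehicle and DOX libraries by -0.001, 0.035 and 0.017 in BT-549. In DU-145 these correlations were 0.030, 0.050 and -0.039. Whether libraries of the same number share a batch cannot be told from these values.

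Of 224 recomputed values of single named regions in BT-549, 221 kept direction and call. These regions were the first 8 opening and the first 8 closing by adjusted p, the calls least likely to change. The other calls were less stable, since over all members the closing count went from 57 to 12 by DESeq2. PTGFR (-0.85) and EYA4 (-0.90) fell short of the fold cutoff when bins were summed, and MAML2 (-1.10) had an adjusted p of 0.0148 by edgeR without DOX replicate 3. The share with a BT-549 peak was 11.7% for all 3 vehicle and 8.89% for any DOX library. The share within 1 kb of a TSS was 4.11% for protein-coding genes and 8.48% from the region's edge. The AP-1 share was 26.7% in 100 bp, 46.1% in 500 bp, 47.1% in whole regions and 43.7% in distal windows of 40% to 50% GC. Shallow BT-549 DOX libraries limit what could be called there, and a region without a peak is not shown to be closed.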
